A study of Mus musculus with 6 samples.

Results

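RNA sequencing of mouse pancreatic islets was read for 10 genes of the circadian clock. They were Arntl, Clock, Per1, Per2, Per3, Cry1, Cry2, Nr1d1, Nr1d2 and Dbp, chosen by name as textbook members of the core clock, and each had 1 row among the 22923 genes of the count table. All 10 passed the filter on low counts. The study compared islets of WT mice with islets of mice labelled FFA2 global KO, a line described as carrying a deletion of Ffar2, the gene of a short-chain fatty acid receptor, in the whole body. Every mouse of both groups was fed normal chow, the labels give 10 to 12 weeks of age, whereas the paper's supplement describes the sequenced islets as coming from somewhat older males, and the difference could not be settled here. Each library held the pooled islets of 2 mice, with 3 libraries per genotype. The study's methods describe handpicked islets that were left in culture overnight after collagenase digestion, and the hour at which islets were isolated or lysed is not given in the sources used here. With 3 pooled libraries in each group, p-values for genotype set the difference against the spread between pools, and not between single mice.

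The libraries held between 17067263 and 22792367 counts in the genes used. Ffar2 itself was read at 34.1, 27.0 and 26.5 CPM, counts scaled to the size of the library, in WT replicates 1 to 3 and at 71.8, 43.9 and 46.1 CPM in the libraries labelled FFA2 global KO, so its level went against the label and these libraries are called KO-labelled throughout. Counts over the whole gene do not show which part of the transcript was read. KO-labelled replicate 3 stood apart in its acinar RNA, which made up 26.0% of its counts and 1.41 to 10.2% of those of the other libraries. All 10 beta cell markers were read in every library, as islet tissue should show, while the insulin, glucagon and amylin genes carried no usable count because the quantification skipped loci with too many reads. In bulk islets, fewer cells of a type and less RNA per cell cannot be told apart.

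The mammalian clock is a feedback loop of transcription. BMAL1, the product of Arntl, pairs with CLOCK and binds E-boxes at the Per, Cry, Nr1d1, Nr1d2 and Dbp genes. The PER and CRY proteins then block the pair, and the REV-ERB receptors encoded by Nr1d1 and Nr1d2 shut down Arntl, so Arntl and the E-box genes peak at opposite phases of the day in most tissues. In islets this clock is known to time insulin secretion, and mice without BMAL1 in the pancreas become diabetic.

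Arntl was high in 3 libraries and low in 3, and the split crossed the genotypes. It was read at 32.5, 10.4 and 7.03 CPM in WT replicates 1, 2 and 3 and at 31.6, 34.8 and 6.37 CPM in KO-labelled replicates 1, 2 and 3. WT replicate 1 and KO-labelled replicates 1 and 2 were thus the high libraries, and the highest stood 5.47-fold above the lowest. Clock had the same high and low libraries over a much smaller range, with 135, 97.1 and 96.6 CPM in WT and 139, 137 and 106 CPM in the KO-labelled libraries, a 1.44-fold span. Npas2, a paralog that can take the place of CLOCK beside BMAL1, ran with Arntl over a 12.3-fold span. Its levels were 7.92, 1.35 and 1.35 CPM in WT and 7.88, 10.1 and 0.822 CPM in the KO-labelled libraries. Ranked by Pearson's r with Arntl over the 6 libraries, Npas2 was number 4 and Clock number 89 of 14081 genes. With Arntl high in 3 libraries and low in 3, such ranks largely restate that split.

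The PER genes ran the other way. Per1, which is also an early responder to cAMP and glucocorticoid signals, was lowest in the 3 libraries in which Arntl was highest. It was read at 201, 600 and 578 CPM in WT and at 162, 160 and 413 CPM in the KO-labelled libraries. Per2, a period gene whose protein turnover sets the pace of the loop, was read at 63.8, 122 and 172 CPM in WT and at 124, 70.9 and 99.9 CPM in the KO-labelled libraries. Per3, an auxiliary member of the family, had 8.85, 23.9 and 36.6 CPM in WT and 21.0, 9.49 and 27.3 CPM in the KO-labelled libraries. All of Per1, Per2 and Per3 were low in WT replicate 1 and KO-labelled replicate 2, whereas KO-labelled replicate 1 held the second highest Per2 of the 6 libraries beside a Per1 close to the lowest.

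The REV-ERB genes, which encode heme-binding repressors of Arntl, took a similar course. Nr1d1 had 189, 368 and 436 CPM in WT and 293, 138 and 170 CPM in the KO-labelled libraries. Nr1d2 had 155, 251 and 326 CPM in WT and 289, 111 and 193 CPM in the KO-labelled libraries. Both were highest in WT replicate 3 and lowest in KO-labelled replicate 2. KO-labelled replicate 1 broke the opposition again, with Nr1d1 and Nr1d2 above their means over the 6 libraries at a high Arntl, and KO-labelled replicate 3 broke it from the other side, with Nr1d1 and Nr1d2 below their means at the lowest Arntl.

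Dbp, a D-box activator that carries the rhythm to output genes, had the widest span of the 10 genes from the lowest to the highest library. Its levels were 16.2, 55.1 and 95.5 CPM in WT and 35.5, 11.3 and 43.2 CPM in the KO-labelled libraries, an 8.45-fold span. Within WT alone the span was 5.88-fold and within the KO-labelled libraries 3.82-fold, beside group means of 55.6 ± 39.6 and 30.0 ± 16.6 CPM (SD, n = 3). The standard deviation of log2 CPM over the 6 libraries was 1.14 for Dbp and 1.16 for Arntl, against a median of 0.17 over genes with a mean log2 CPM above 3, which placed both at percentile 99.3 of those genes. The exons of Dbp share 539 bases with Sphk2 on the opposite strand, and reads there cannot be assigned without strand. Sphk2 ranged from 79.2 to 107 CPM over the same libraries. It was lowest in WT replicate 1, at 79.2 CPM, and KO-labelled replicate 2, at 87.4 CPM, the libraries also lowest in Dbp. KO-labelled replicate 1, with a Dbp of 35.5 CPM, held 107 CPM of Sphk2. The part of Sphk2 reads in the counts of Dbp was not tested.

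**Figure D1:**
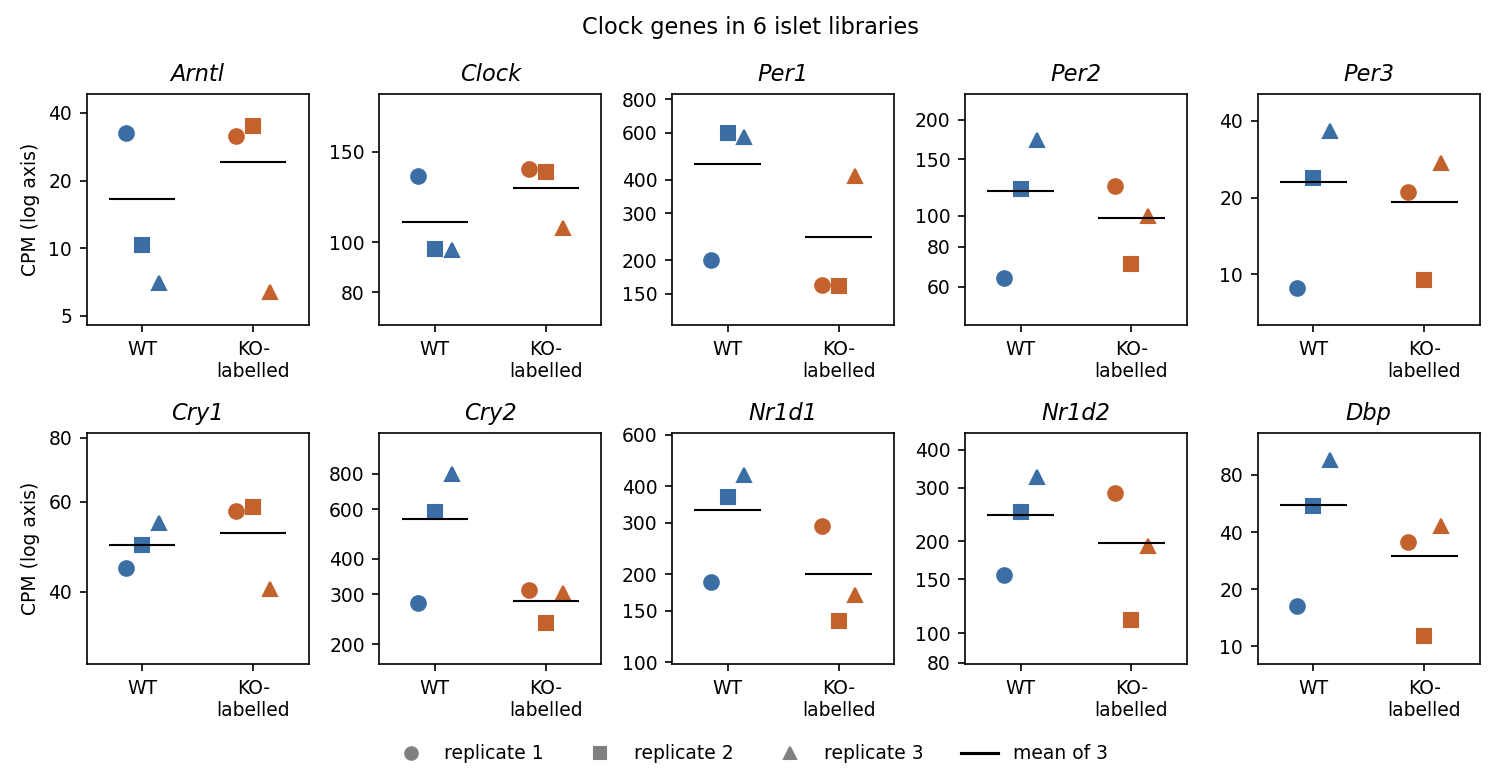
CPM of the 10 clock genes in each islet library (log axis, each panel with its own range), WT in blue and KO-labelled in orange, with the replicate number given by the symbol and a black line at the mean of 3. Arntl and Clock are high in WT replicate 1 and KO-labelled replicates 1 and 2, where Per1 is at 201, 162 and 160 CPM, and no gene separates the genotypes.

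The cryptochromes, which repress BMAL1 and CLOCK together with the PER proteins, differed from each other. Cry2 had 280, 587 and 800 CPM in WT and 310, 238 and 304 CPM in the KO-labelled libraries. It was high in WT replicates 2 and 3 and stayed near the level of WT replicate 1 in all KO-labelled libraries, including replicate 3, in which Arntl was lowest. Cry1 varied little, with 44.5, 49.3 and 54.5 CPM in WT and 57.5, 58.5 and 40.4 CPM in the KO-labelled libraries, a 1.45-fold span. Cry1 and Clock stood at percentiles 66.6 and 76.3 of the spread over the 6 libraries, and the other 8 clock genes at 96.6 or above.

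To set the arms against each other, the log2 CPM of each gene was centred on its mean over the 6 libraries and averaged over Arntl and Clock as activators, and over Per1, Per2, Per3, Nr1d1, Nr1d2 and Dbp as the E-box arm. Cry1 and Cry2 were kept out of both. The activators stood at 0.61, -0.45 and -0.73 in WT and at 0.61, 0.67 and -0.73 in the KO-labelled libraries. The E-box arm stood at -0.70, 0.53 and 0.94 in WT and at 0.06, -0.95 and 0.12 in the KO-labelled libraries. The arms thus had opposite signs in 5 of 6 libraries. KO-labelled replicate 1 was the exception, with high activators and an E-box arm near its mean, made up of a low Per1 and raised Nr1d2, Per2 and Nr1d1. In KO-labelled replicate 3 the E-box arm was also near its mean, with Per1, Per3 and Dbp above and Nr1d1 and Nr1d2 below.

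**Figure D2:**
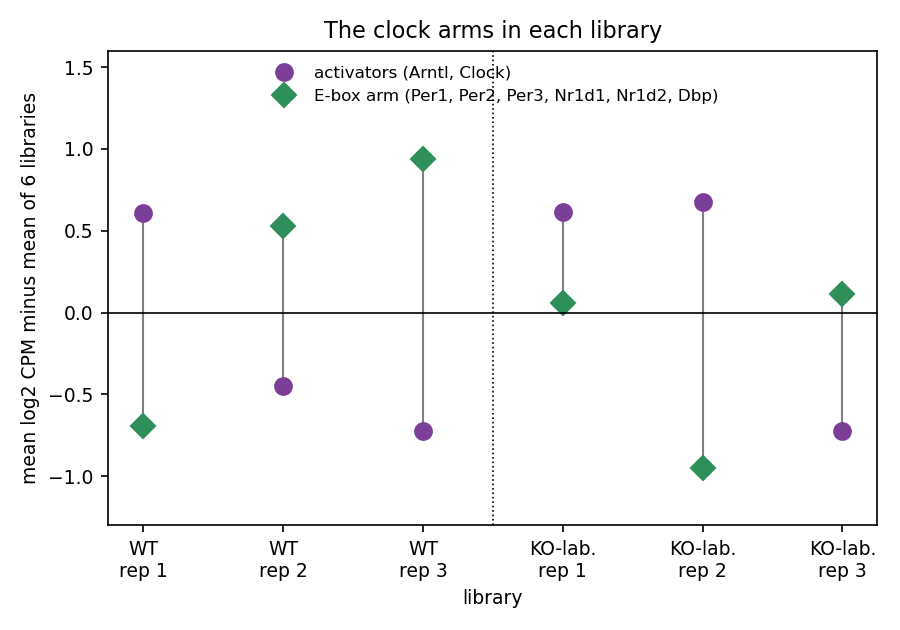
Mean centred log2 CPM of the activators (purple circles) and of the E-box arm (green diamonds) in each library, with 0 as the mean of the 6 libraries and a grey line joining the arms. The arms lie on opposite sides of 0 in every library but KO-labelled replicate 1, where they stand at 0.61 and 0.06, and the order of the arms turns within both genotypes.

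The signs of the pairwise correlations of log2 CPM were uniform for these arms, but their strength was not. All 12 pairs of an activator with an E-box arm gene had a Pearson's r below 0, and all 15 pairs within the E-box arm had an r above 0. Both counts were the same on deviations from the genotype means. These pairs share genes and the same 6 libraries and are not independent of each other. Every activator pair also holds Arntl or Clock, and both fell into a high and a low cluster of libraries. The signs of these pairs, and the ranks by r with Arntl, thus cannot be read apart from that split. With Arntl, 7039 of the other 14081 genes had an r below 0. Ranked from the lowest r with Arntl, Per1 was number 111, Per3 443, Dbp 565, Per2 1761, Nr1d2 2841 and Nr1d1 3512 of 14081. Arntl, Clock, Per1, Per3 and Cry2 fell into separate clusters of libraries, with a gap wider than 50% of their log2 range, so no r is given for them. Among the other 5 genes, Per2 and Nr1d2 had an r of 0.92 and a Spearman's rho of 0.94 (exact permutation of 6 libraries, 2-sided p = 0.00972 and 0.0167, adjusted over 45 pairs 0.0893 and 0.15). The r was 0.99 without the libraries farthest from the median of Per2. Per2 and Dbp had an r of 0.94 and a rho of 0.77 (exact permutation p = 0.0111 and 0.103, adjusted 0.0893 and 0.243), with an r of 0.90 without the farthest libraries. For the REV-ERB genes, Nr1d1 with Nr1d2, r was 0.91 and rho 0.89 (exact permutation p = 0.0167 and 0.0333, adjusted 0.0938 and 0.15), and r was 0.79 without the farthest libraries. The 4 pairs of Cry1 with Per2, Nr1d1, Nr1d2 and Dbp had r between -0.08 and 0.26. Of these 10 pairs, 6 had an exact permutation p of r under 0.05 and 0 an adjusted one.

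RefSeq promoter windows of 300 bases, from 250 before to 50 after a start site on GRCm38.p6, were available for 9 of the 10 genes and were searched on both strands for the elements through which the loop is wired. These were the E-box CACGTG, the E′ box CACGTT, the D-box TTATGTAA or TTACGTAA, the REV-ERB core AGGTCA and the cAMP element TGACGTCA. An E-box was present in 7.15% of all 32851 windows, an E′ box in 4.68%, a D-box in 1.06%, an AGGTCA in 16.3% and a cAMP element in 1.79%. These shares are per window, and the 9 genes held 13 windows, so the counts per gene given here cannot be set directly against them. Among the clock genes, 4 had an E-box or E′ box in a window, namely Per1, Cry1, Cry2 and Nr1d1. The stretches around these elements are shown because the E-box and E′ box are the kinds of element that BMAL1 and CLOCK are known to bind. Per1 and Nr1d1 belong to the E-box arm, and the windows of Per3, Nr1d2 and Dbp, which belong to it too, held neither element. Bases outside the windows were not searched, so an absence here does not show that a gene lacks the element. Cry1 carried both elements and varied little. Capitals mark the E-box and the E′ box only, each stretch reads 5′ to 3′ on the strand of its gene, and AACGTG is CACGTT read from the other strand.
Per1, chr11:69098743-69098828, plus strand: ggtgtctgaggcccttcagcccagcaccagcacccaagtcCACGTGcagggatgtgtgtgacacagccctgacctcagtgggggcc
Cry1, chr10:85185069-85185173, minus strand: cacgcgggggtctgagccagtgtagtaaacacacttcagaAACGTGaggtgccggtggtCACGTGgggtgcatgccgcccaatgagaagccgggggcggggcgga
Cry2, chr2:92434190-92434275, minus strand: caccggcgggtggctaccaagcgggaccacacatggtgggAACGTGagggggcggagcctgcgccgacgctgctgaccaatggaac
Nr1d1, chr11:98775378-98775445, minus strand: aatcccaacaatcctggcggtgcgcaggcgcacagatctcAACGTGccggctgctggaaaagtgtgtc
The E-box of Per1 began 166 bases before the start site. In Cry1 the E-box lay at -60 and the E′ box at -79, and the span of Cry1 was 1.45-fold beside 3.74-fold for Per1.

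Per3 carried the D-box 2 times in its window, at -205 and -158, the element bound by the Dbp protein and by its relatives TEF and HLF. It is shown because Per3 and Dbp kept nearly the same order of libraries, both low in WT replicate 1 and KO-labelled replicate 2 and highest in WT replicate 3. The AGGTCA core, on either strand, was found in windows of 4 genes, at -119 from a start site of Clock, at -137 in Per1, at -77 in Nr1d2 and 32 bases after 1 of the start sites of Arntl. The stretch of Arntl is shown because REV-ERB receptors are known to repress this gene, with capitals on the core. The window of Dbp held none of the elements searched for. The cAMP element was found in no window of the clock genes, those of Per1 included.
Per3, chr4:151044776-151044910, minus strand: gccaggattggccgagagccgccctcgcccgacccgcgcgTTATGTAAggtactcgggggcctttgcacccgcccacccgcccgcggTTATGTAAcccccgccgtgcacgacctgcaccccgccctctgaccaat
Arntl, chr7:113207530-113207559, plus strand: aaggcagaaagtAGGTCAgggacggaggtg
A match of letters is a description and does not show that a factor was bound in these islets.

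A wider list of 31 clock genes, drawn from textbook knowledge, gave 29 tested genes. Ciart, a repressor of the BMAL1 and CLOCK pair that the table lists under an older symbol, had 4.45, 16.0 and 23.6 CPM in WT and 5.66, 3.04 and 10.6 CPM in the KO-labelled libraries. Ciart thus repeated the pattern of Dbp over a 7.75-fold span. Its promoter window held the E-box 3 times, at -116, -58 and -44 from the start site, and the stretch is shown for that density, with capitals on the E-boxes.
Ciart, chr3:95882229-95882384, minus strand: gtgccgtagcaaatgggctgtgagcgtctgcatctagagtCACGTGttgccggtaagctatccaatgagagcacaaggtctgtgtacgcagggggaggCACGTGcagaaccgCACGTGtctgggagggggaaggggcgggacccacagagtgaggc
Among the relatives of Dbp, Tef had 61.8, 131 and 185 CPM in WT and 94.8, 55.8 and 142 CPM in the KO-labelled libraries. Hlf, the remaining factor of this D-box family, had 14.5, 20.7 and 34.2 CPM in WT and 18.3, 12.8 and 24.4 CPM in the KO-labelled libraries. Tef and Hlf, named here after their values were seen, were both lowest in KO-labelled replicate 2 and highest in WT replicate 3, as Dbp was. Usp2, a deubiquitinase with a rhythmic transcript, had 33.7, 93.3 and 113 CPM in WT and 52.2, 28.9 and 58.2 CPM in the KO-labelled libraries, and again KO-labelled replicate 2 was the lowest and WT replicate 3 the highest. Nfil3, the repressor that competes with Dbp at D-boxes, held almost still between 178 and 206 CPM. Ranked by r with Dbp, Usp2 was number 21, Tef 23, Per3 38, Ciart 40, Hlf 58 and Per2 number 90 of 14081 genes. Lower in this ranking were Nr1d2 at 165, Cry2 at 240, Nr1d1 at 371, Per1 at 419, Nfil3 at 4154 and Cry1 at 7782.

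**Figure D3:**
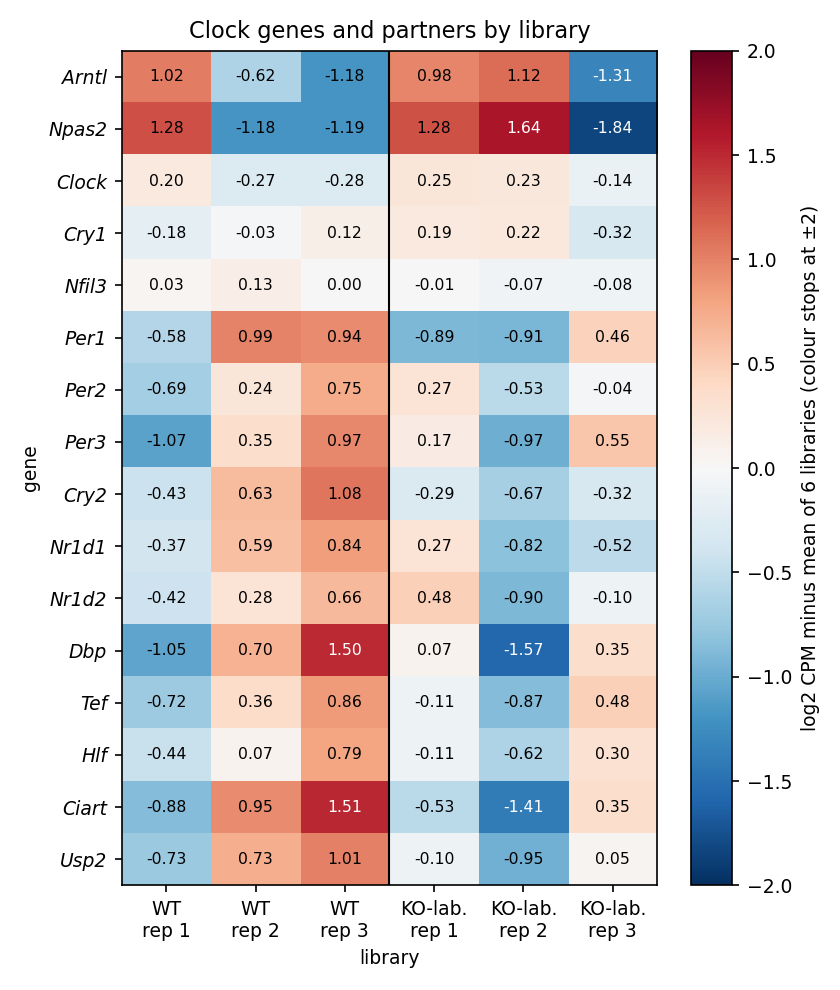
Log2 CPM minus the mean of the 6 libraries for the 10 clock genes and for Npas2, Nfil3, Tef, Hlf, Ciart and Usp2, by library (rep, replicate; KO-lab., KO-labelled), with each value printed in its cell. Arntl and Npas2 have the opposite sign to every gene from Per1 downward in WT replicates 1, 2 and 3 and in KO-labelled replicate 2, and KO-labelled replicates 1 and 3 hold genes of that block on both sides of 0.

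Among the genes most like Dbp over the 6 libraries, out of 10015 with a mean log2 CPM above 3, were Tbl1xr1 with an r of 0.997, A830010M20Rik with 0.995, Coq10b with 0.992 and Fosl2 with 0.991. Their levels moved less than that of Dbp, from 23.2 to 33.2 CPM for Tbl1xr1 and from 78.9 to 277 CPM for Coq10b. The genes most like Arntl by the same ranking were Slc37a3, Lss, Leo1, Ppm1b and Bace2, for which r is not given because Arntl fell into separate clusters. Ppm1b had 258, 169 and 166 CPM in WT and 281, 270 and 156 CPM in the KO-labelled libraries.

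Several other gene groups differed between the libraries, some of them along the clock pattern. The 6 stromal markers summed to 36.8, 258 and 79.9 CPM in WT and to 22.7, 41.3 and 197 CPM in the KO-labelled libraries, so the libraries low in Arntl held the most, and all 6 had an r below 0 with Arntl. The 8 macrophage markers summed to 138, 198 and 158 CPM in WT and to 105, 119 and 161 CPM in the KO-labelled libraries, with 8 of 8 below 0. The 7 alpha cell markers, at 2389 to 3046 CPM in WT and 1852 to 2784 CPM in the KO-labelled libraries, had 7 of 7 below 0, and the 10 beta cell markers 2 of 10. All 24 acinar markers had an r below 0 with Arntl, and their shares of counts were 4.58, 5.50 and 1.41% in WT and 1.57, 10.2 and 26.0% in the KO-labelled libraries. WT replicate 3 thus held the least acinar RNA beside the second lowest Arntl, and KO-labelled replicate 2 the second most beside the highest Arntl. Markers of 1 cell type vary together, so these counts of signs are not independent. No marker of these lists was at 0 in any library, and the part of these cells in the clock pattern was not tested.

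Signals that act on Per1 were read from lists of responsive genes. The 5 glucocorticoid-responsive genes, among them the chaperone Fkbp5, summed to 521, 661 and 706 CPM in WT and to 469, 478 and 777 CPM in the KO-labelled libraries, highest in the libraries with the most Per1, and 5 of 5 had an r below 0 with Arntl. The 10 immediate early genes summed to 8455, 9888 and 8756 CPM in WT and to 6339, 8476 and 14390 CPM in the KO-labelled libraries, with 6 of 10 below 0. Nr4a1, an immediate early gene named after its values were seen, had 819, 1923 and 1782 CPM in WT and 586, 550 and 1730 CPM in the KO-labelled libraries, the same high and low libraries as Per1. Fos did not share them, at 1231, 747 and 717 CPM in WT and 924, 1237 and 1580 CPM in the KO-labelled libraries. The part of these signals in the clock pattern was not tested.

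Between the genotypes, 0 of the 10 clock genes differed by edgeR's quasi-likelihood test at a Benjamini-Hochberg adjusted p under 0.05, and over all 14082 genes tested 0 (0%) did. With an unadjusted p under 0.05 there were 661 genes, and DESeq2 called 8 genes, 0.0568% of those it tested, of which 0 were clock genes. The clock genes with an unadjusted edgeR p under 0.05 numbered 1 of 10, against 4.69% of all genes. At that level 2.12% of all genes were lower in the KO-labelled libraries. The clock gene was Cry2, with 556 ± 261 CPM in WT and 284 ± 40.1 CPM in the KO-labelled libraries (SD, n = 3). Its log2 fold change was -0.97 (SE 0.35, 95% interval -1.79 to -0.14, edgeR adjusted p = 0.852). WT replicate 1, at 280 CPM, lay inside the range of the KO-labelled libraries. Without WT replicate 3 the log2 fold change of Cry2 was -0.61, and without WT replicate 1 it was -1.29. DESeq2 gave Cry2 an unadjusted p of 0.00314 and an adjusted p of 0.597 over the 6 libraries. DESeq2 also put Nr1d1 under 0.05, with an unadjusted p of 0.0381 and an adjusted p of 0.992. Cry2 shares 149 exon bases with D930015M05Rik on the opposite strand, which was read at 1.32 CPM or less.

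None of the 10 clock genes had WT and KO-labelled libraries that did not overlap, while 11.2% of all genes did. The activators were higher in the mean, with a log2 fold change of 0.55 for Arntl (SE 0.73, 95% interval -1.16 to 2.26, edgeR adjusted p = 0.900) and of 0.22 for Clock (SE 0.17, adjusted p = 0.859). All 6 genes of the E-box arm were lower in the mean and did not pass the test. Per1 had a log2 fold change of -0.91 (SE 0.51, 95% interval -2.12 to 0.30, edgeR adjusted p = 0.852), Nr1d1 of -0.72 (SE 0.37) and Dbp of -0.89 (SE 0.67, 95% interval -2.47 to 0.69, edgeR adjusted p = 0.855). Per2, Per3 and Nr1d2 lay between -0.30 and -0.26, and Cry1 at 0.08. With 1 library left out, Nr1d2 ranged from -0.69 without KO-labelled replicate 1 to -0.02 without KO-labelled replicate 2, Nr1d1 from -1.11 without KO-labelled replicate 1 to -0.48 without WT replicate 3, and Clock from 0.14 without WT replicate 3 to 0.39 without WT replicate 1. The intervals of Arntl, Dbp and Per1 reach past a log2 difference of 2 in 1 direction, so a difference of that size lay within the error of these libraries. Per1 ranged from -1.52 without KO-labelled replicate 3 to -0.67 without WT replicate 2. Dbp ranged from -1.33 without WT replicate 1 to -0.25 without WT replicate 3. Arntl moved from 0.55 to 1.49 without WT replicate 1 and to 0.18 without WT replicate 3, and the difference of the arms, 0.89 on the log2 scale in favour of the activators in the KO-labelled libraries, moved to 1.77 and 0.28 without the same libraries. Nr1d1 shares 263 exon bases with Thra on the opposite strand, and Thra had 43.3 to 56.9 CPM in WT and 41.2 to 42.7 CPM in the KO-labelled libraries.

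**Figure D4:**
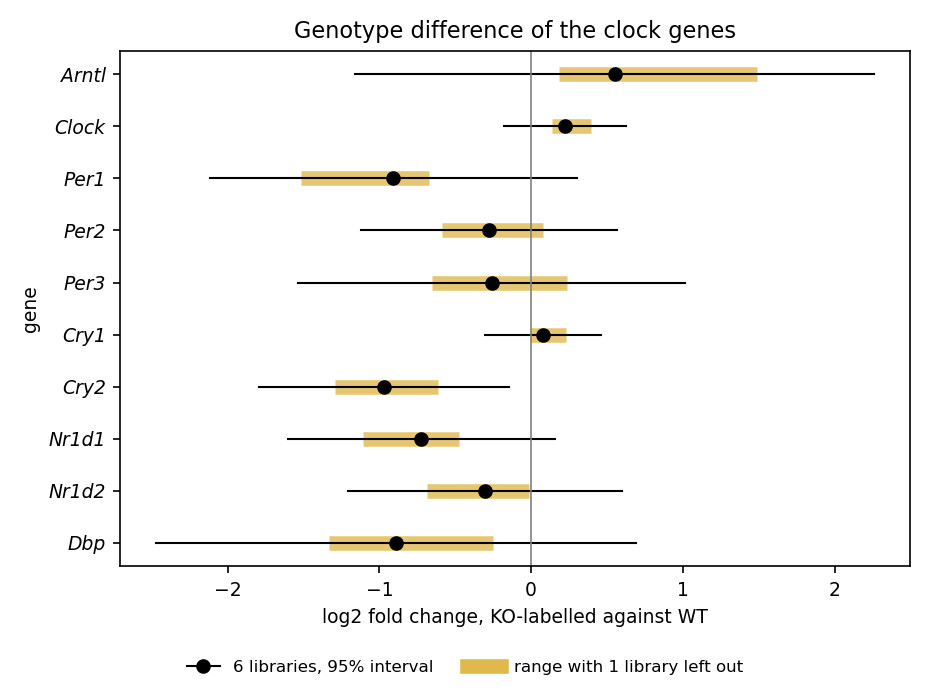
Log2 fold change of each clock gene in KO-labelled against WT libraries (edgeR, 3 against 3), with the 95% interval as a black line and the range of the values with 1 library left out as a yellow bar. The interval of Cry2, from -1.79 to -0.14, is the one that does not hold 0, and the bars of Per2, Per3 and Cry1 cross 0.

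In the wider list, 0 of 29 genes passed the adjusted test, 9 lay above 0 and 20 below, and the median log2 fold change was -0.10, beside -0.29 for the 10 clock genes and 0.02 over all genes tested. The wider genes with an unadjusted p under 0.05 numbered 1 of 29. It was Tipin, a replication fork protein that binds TIMELESS, with 16.9, 15.3 and 17.7 CPM in WT and 14.4, 13.3 and 13.1 CPM in the KO-labelled libraries (log2 fold change -0.29, edgeR adjusted p = 0.852). WT and KO-labelled libraries did not overlap for Tipin, Nfil3 and Btrc, a ubiquitin ligase subunit that acts on PER proteins, which makes 3 of 29 beside 11.2% of all genes. Nfil3 and Btrc each had a log2 fold change of -0.10. Ciart at -1.20 (SE 0.64), Npas2 at 0.83 (SE 0.95) and Usp2 at -0.79 (SE 0.45) were further apart in the mean and had wide errors. Npas2 moved to 0.32 without KO-labelled replicate 2 and to 2.22 without WT replicate 1. Ciart moved to -0.68 without WT replicate 3 and to -1.74 without KO-labelled replicate 3. Usp2 moved to -0.45 without WT replicate 3 and to -1.16 without WT replicate 1.

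Per length of exon, as RPKM (here CPM divided by the kilobases of exon), the order of the levels in WT ran from Cry2 at 128 ± 60.1, Nr1d1 at 122 ± 46.9, Per1 at 81.7 ± 39.9 and Nr1d2 at 52.3 ± 18.4 through Dbp at 30.3 ± 21.6, Per2 at 20.4 ± 9.30 and Cry1 at 16.3 ± 1.66 to Clock at 11.0 ± 2.20, Arntl at 5.38 ± 4.49 and Per3 at 3.85 ± 2.31 (SD, n = 3). Only Cry1 and Clock were neighbours whose WT libraries did not overlap. In the KO-labelled libraries Nr1d1 led at 73.6 ± 30.1 RPKM, followed by Cry2 at 65.4 ± 9.23, and Per3 was again the lowest at 3.21 ± 1.51. The break there lay between Nr1d2 at 42.3 ± 19.2 and Cry1 at 17.2 ± 3.36 RPKM, and all other neighbours overlapped. The authors' pooled RPKM put Cry2, Nr1d1 and Per1 in the first 3 places in WT as well, at 109, 103 and 77.2.

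On the mm10 build, Dbp, chr7:45705247-45710203, and Arntl, chr7:113207465-113314126, share chromosome 7 with Ffar2, at 14.88 and 82.38 Mb from it, and Per1, chr11:69098956-69109957, shares chromosome 11 with Nr1d1, chr11:98767935-98775242.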

How the data were processed

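RNA from islets of 3 WT and 3 FFA2 global KO pools of mice was sequenced. According to the study's methods and the submitters' processing notes, the authors aligned reads to mm10 with TopHat2 2.0.8b and quantified them with Cuffdiff 2.1.1. The deposited estimated counts per gene and library, of which 478 genes had a value that was not whole, were rounded. The authors' pooled RPKM, 1 value per genotype, served only for an order of levels. Their fold change and p-value columns were not used.

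Of 22923 genes, 158 with several values under 1 name and 15 that the caller had skipped were left out, and 22750 entered the filter. Counts were tested with the quasi-likelihood test of edgeR 4.0.16 (TMM scaling, filterByExpr with a minimum count of 10 and a total of 15, genotype as the term, Benjamini-Hochberg over 14082 genes, threshold 0.05) in R 4.3.3. CPM values are TMM-scaled, and log2 CPM carry a prior count of 2. DESeq2 1.42.0 and limma 3.58.1 (voom) were alternatives, as were other scalings and filters, a covariate for acinar RNA and leaving out each library. The scripts were tested on simulated counts. Correlations used exact permutation of 720 pairings. Whether a gene fell into separate clusters of libraries (a gap above 50% of its log2 range) was decided after the data were seen.

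The 10 genes came from their names. From the wider clock list, genes with an unadjusted p under 0.05 or with groups that do not overlap were named, and otherwise the gene of lowest p in a sublist; from other lists, the gene of lowest p. Some genes that the rule would name are not reported here. The members and lists were chosen with earlier results of these data known. Exon lengths and overlaps came from the GENCODE annotation and promoter windows from RefSeq. In the wider list, Rorb was below the filter and Cipc had no row. Replicate numbers were not taken to pair the samples in the main fit. Depth of 17067263 to 22792367 counts limits the low genes most, such as Npas2, with 12 counts in KO-labelled replicate 3.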

Additional observations from a re-analysis of the deposited data

How the results depend on the processing

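Across all genes, the count of 0 called by edgeR became 1 without a filter on low counts and 1 at an adjusted p of 0.1, Atp4a in both, and 8 with DESeq2, none of them a clock gene. In every alternative run, 0 of the 10 clock genes passed an adjusted p of 0.05, and the lowest adjusted p was 0.263, for Per1 with a covariate for acinar RNA. Unadjusted p under 0.05 was reached by 661 genes and, with that covariate, by 2740, of which 0 were clock genes, and leaving out 1 library gave 225 to 1238, of which 0 to 4 were clock genes beside 1 in the fit of 6 libraries. Cry1 turned from 0.08 to -0.05 on total counts, a scaling that moved the median of all genes from 0.02 to -0.14. With 1 library left out, log2 fold changes that changed sign ranged from -0.585 to 0.081 for Per2, -0.654 to 0.235 for Per3, -0.009 to 0.228 for Cry1, -0.745 to 0.013 for Tef, -0.573 to 0.068 for Hlf and -2.306 to 0.322 for Col3a1. WT replicate 3 decided the sign for Per2, Tef and Hlf, WT replicate 3 or KO-labelled replicate 2 that for Per3, KO-labelled replicate 2 that for Cry1, and WT replicate 2 that for Col3a1. The cause was not tested. The difference of the arms ranged from 0.278 to 1.765 with 1 library left out and from 0.859 to 1.036 with other members or scalings. Of the activator and E-box arm pairs, 12 of 12 kept an r below 0 without any 1 library, and 11 without the libraries farthest from the median. Arntl and Clock fell into separate clusters of libraries, so these counts cannot be read apart from that split.

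Same-numbered WT and KO-labelled libraries had correlations of their deviations of 0.114, -0.138 and -0.344. These values over all genes cannot show whether same-numbered pools were collected together. A fit with the replicate number as a block called 0 genes and gave 454 genes with an unadjusted p under 0.05, and WT replicate 2 correlated best with KO-labelled replicate 3, at 0.591. With the block the log2 fold change was -0.89 for Per1, -0.86 for Cry2 and -0.79 for Dbp.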

Other observations

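The gene of lowest unadjusted edgeR p in each of the other lists, named by the rule, was not called after adjustment in any list. In the glucocorticoid-responsive list it was Zbtb16, a zinc finger repressor induced by these hormones, with 3.22 ± 1.20 CPM in WT and 1.39 ± 0.421 CPM in the KO-labelled libraries (SD, n = 3; log2 fold change -1.23, SE 0.39). In the beta cell list it was Pdx1, a transcription factor of beta cell identity, with 97.5, 79.5 and 82.9 CPM in WT and 100.4, 138 and 116 CPM in the KO-labelled libraries (log2 fold change 0.45, SE 0.14). Pdx1 did not stand for its list, in which 5 genes lay above 0 and 5 below, with a median log2 fold change of -0.04. WT and KO-labelled libraries did not overlap for Pdx1 or for Slc2a2, which went the other way at -0.28 (SE 0.13). In the acinar list it was the trypsinogen gene Prss1, at 7.70 to 29.2 CPM in WT and at 26.9, 43.7 and 299 CPM in the KO-labelled libraries. The other lists gave log2 fold changes of 0.47 for Fos, -0.36 for Ttr, -0.14 for Ppy, -0.31 for Krt7, 0.16 for Flt1, -0.95 for Col3a1 and -0.50 for C1qb. A gene named in this way need not show the direction of its list. The ductal list of Krt7 held 4 genes above 0 and 4 below.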
